A study of Rattus norvegicus with 16 samples.

Results

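The genes described here encode the proteasome, its activators and its assembly chaperones, in cells cultured from the olfactory mucosa of rats. They were taken as all 52 array probes, of 30367, whose gene symbol starts with Psm followed by a, b, c, d, e or g and a number. These probes stood for 46 genes, all of which were among the 20572 genes tested. The 5 immunoproteasome genes, Psmb8, Psmb9, Psmb10, Psme1 and Psme2, were set against the 41 other members.

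RNA was measured in 16 samples, 4 biological replicates from each of 4 cell populations of male Fischer rats. The TRKA-TGF population consisted of TRKA cells that had been conditioned in culture with TGF-alpha, a growth factor. The TRKA, CD90 and p75 populations shared 1 culture protocol and had no such conditioning. All 4 populations were purified by fluorescence-activated cell sorting to 93 to 97%, per the labels. CD90 is a surface protein encoded by Thy1, and p75 is the neurotrophin receptor encoded by Ngfr. The labels do not say whether replicates came from separate animals, so p-values measure the spread between these samples.

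The proteasome degrades proteins that carry a ubiquitin tag. Its barrel-shaped core is built of alpha rings, which gate the entrance, and beta rings, which hold the catalytic sites of Psmb5, Psmb6 and Psmb7, and its regulatory cap holds ATPases (Psmc genes) and non-ATPase subunits (Psmd genes). In the immunoproteasome the catalytic subunits are replaced by Psmb8 in the place of Psmb5, Psmb9 in the place of Psmb6 and Psmb10 in the place of Psmb7, which shifts the peptides made toward those that bind MHC class I. Psme1 and Psme2 encode the alpha and beta subunits of the PA28 activator that opens the core in place of the cap. These 5 genes are known to be induced by interferon gamma and to be expressed without it in blood-derived immune cells.

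Sequences upstream of 3 genes are shown because they hold the motifs named in textbooks as the means of induction. Interferon regulatory factors bind the interferon-stimulated response element, searched here as GAAA, any 2 bases and GAAA, and factors of the Nfe2 family, which raise proteasome genes when the proteasome is inhibited, bind TGACNNNGC. Each sequence holds the 250 bases before the RefSeq start of the gene on GRCr8, 5′ to 3′ on the gene's strand, with matches in capitals. Psmb10 is at chr19:50743293-50743542 (minus strand) with the interferon element at −73 to −64 and at −17 to −8, Psme2 at chr15:33052752-33053001 (minus strand) with that element at −53 to −44, and Psmb5 at chr15:32047380-32047629 (minus strand) with TGACNNNGC at −60 to −52.
Psmb10: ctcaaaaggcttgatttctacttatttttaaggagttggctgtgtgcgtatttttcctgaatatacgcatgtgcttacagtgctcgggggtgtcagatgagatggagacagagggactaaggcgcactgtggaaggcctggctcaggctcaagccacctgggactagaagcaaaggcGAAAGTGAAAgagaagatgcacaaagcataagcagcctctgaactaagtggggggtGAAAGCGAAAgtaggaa
Psme2: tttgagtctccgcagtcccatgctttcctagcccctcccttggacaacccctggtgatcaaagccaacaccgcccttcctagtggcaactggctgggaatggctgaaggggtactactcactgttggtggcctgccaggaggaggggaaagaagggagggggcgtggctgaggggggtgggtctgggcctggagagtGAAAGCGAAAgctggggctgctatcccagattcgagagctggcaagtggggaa
Psmb5: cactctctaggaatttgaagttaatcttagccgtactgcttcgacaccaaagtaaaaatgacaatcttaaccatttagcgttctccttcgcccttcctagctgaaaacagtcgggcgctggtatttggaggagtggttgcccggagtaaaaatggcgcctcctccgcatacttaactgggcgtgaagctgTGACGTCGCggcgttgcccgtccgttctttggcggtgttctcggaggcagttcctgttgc

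Both strands were searched. The interferon element was in the 250 upstream bases of 5 of the 41 members with a RefSeq promoter, namely Psma4, Psmb10, Psmb3, Psmd7 and Psme2, and in 3.41% of all 33469 promoters. In Psmb8 a match on the other strand runs across the start, from −4 to 6, in the 30 bases chr20:4657016-4657045 (minus strand) that read as follows, with the match in capitals.
Psmb8: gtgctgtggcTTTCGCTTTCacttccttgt
TGACNNNGC was upstream of 7 members (Psma3, Psmb2, Psmb5, Psmb6, Psmd1, Psmd9 and Psme4) and of 10.1% of all promoters. Neither motif was in the window of Psmb9, Psme1, Psmb7 or Psme3. These matches are letters in a window and were not tested for binding.

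The catalytic subunits are paralogs, so the 60-base array probes that measured 3 of them are shown to let their sequences be compared. Per the array files the Psmb8 probe lies at chr20:4787980-4788039 (minus strand), the Psmb5 probe at chr15:32690134-32690193 (minus strand) and the Psmb6 probe at chr10:57371368-57371427 (plus strand), all on rn4.
Psmb8: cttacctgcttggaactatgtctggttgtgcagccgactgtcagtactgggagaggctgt
Psmb5: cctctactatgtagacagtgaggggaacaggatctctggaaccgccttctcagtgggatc
Psmb6: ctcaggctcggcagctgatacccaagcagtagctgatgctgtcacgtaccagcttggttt
The longest run that the Psmb8 and Psmb5 probes share is 7 bases, against 6 bases for Psmb8 and Psmb6 and 5 bases for Psmb5 and Psmb6. The Psmb9 probe lies on the same rn4 chromosome as that of Psmb8, at 4806341 to 4806400, and the probes of Psme1 (33715651 to 33715710) and Psme2 (33723033 to 33723182) are likewise close to each other on chromosome 15.

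Levels are log2 signals from which the array's own 75th percentile was subtracted, so that 0 is that percentile. A difference is the population named first minus the one named second, fitted with limma over all 16 arrays, and a gene was called where its Benjamini-Hochberg adjusted p over all genes was under 0.05. The share of spots well above background was 51.4 to 57.5% on TRKA arrays, against 66.4 to 70.6% on TRKA-TGF, 70.7 to 72.4% on CD90 and 68.5 to 71.2% on p75 arrays. Of the 46 members, 45 were above background on all 4 TRKA-TGF arrays, 35 on all 4 TRKA arrays, 43 on all 4 CD90 arrays and 43 on all 4 p75 arrays. The median SD between replicates over the members was 0.38 in TRKA-TGF, 0.88 in TRKA, 0.51 in CD90 and 0.36 in p75. TRKA-TGF arrays shared a slide with CD90 arrays, and TRKA arrays shared another with p75 arrays, so TRKA against p75 and TRKA-TGF against CD90 were compared within a slide. In the other 4 comparisons slide and population cannot be told apart, and within a slide population and array row cannot be told apart. As a check of the labels, Thy1 was highest in CD90 (3.44 ± 0.29, SD, n = 4) and Ngfr in p75 (3.16 ± 0.24, SD, n = 4).

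Of the 5 immunoproteasome genes, Psmb9, Psme1 and Psme2 were called higher in TRKA cells in both comparisons with CD90 and p75 cells, and were called lower in TRKA-TGF than in TRKA cells. Psmb10 was called against CD90 cells, and Psmb8 was called in no comparison. Of the 5 genes, 4 were called higher in TRKA than in CD90 cells, where 18.3% of all genes were called higher and 34.9% in either direction. Against p75 cells 3 of 5 were called higher, with 18.8% of all genes called higher and 35.7% in either direction. In TRKA-TGF against TRKA cells 3 of 5 were called lower, with 12.9% of all genes called lower and 26.4% in either direction. The 3 comparisons share the TRKA arrays and are not independent of each other. The median difference of the 5 genes was 2.87 in TRKA against CD90 cells, 2.07 in TRKA against p75 cells and −1.76 in TRKA-TGF against TRKA cells, while that of the other 41 members was 0.20, 0.10 and −0.15 and that of all genes −0.09, −0.01 and 0.19.

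Psmb9, which takes the place of Psmb6, had levels of 1.05, 0.75, 1.22 and 0.85 in TRKA-TGF, 3.22, 3.86, 3.11 and 3.78 in TRKA, 0.16, 0.48, 0.25 and 1.61 in CD90 and 0.57, 0.59, 1.35 and 1.76 in p75 cells. All 4 TRKA arrays lay above every other array. Psmb9 was 5.76-fold lower in TRKA-TGF than in TRKA cells (log2 difference −2.53 ± 0.37 SE, adjusted p = 0.000209). It was higher in TRKA cells by 2.87 ± 0.37 against CD90 (adjusted p = 3.86e-05) and by 2.43 ± 0.37 against p75 (adjusted p = 0.00016).

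Psme2, the beta subunit of PA28, had levels of 3.54, 3.50, 3.37 and 3.29 in TRKA-TGF, 4.96, 5.38, 5.06 and 5.09 in TRKA, 2.57, 3.13, 3.10 and 3.14 in CD90 and 3.69, 3.37, 3.31 and 3.25 in p75 cells. The TRKA arrays again stood above all others, and the replicates of each population were close together. Psme2 was 3.24-fold lower in TRKA-TGF than in TRKA cells (−1.69 ± 0.21, adjusted p = 6.33e-05), and it was higher in TRKA cells by 2.14 ± 0.21 against CD90 (adjusted p = 4e-06) and by 1.72 ± 0.21 against p75 (adjusted p = 2.76e-05).

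Psme1, the alpha subunit of PA28, had levels of 1.88, 0.40, 1.68 and 1.66 in TRKA-TGF, 3.32, 3.57, 3.06 and 2.71 in TRKA, 0.39, 0.67, 1.02 and −1.80 in CD90 and 1.81, 1.00, 1.41 and 0.15 in p75 cells. Every TRKA array was above every array of the other populations. Psme1 was lower in TRKA-TGF than in TRKA cells by a log2 difference of −1.76 ± 0.57 (adjusted p = 0.0358), and higher in TRKA cells by 3.10 ± 0.57 against CD90 (adjusted p = 0.000755) and by 2.07 ± 0.57 against p75 (adjusted p = 0.0117). The first of these calls was lost in 10 of 28 alternative fits, and quantile normalization gave −1.06 with adjusted p = 0.22. The call against p75 cells was lost in 3 of 28, among them quantile normalization and the fit without TRKA replicates 2 and 3. That against CD90 cells was lost in 0.

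Psmb10, which takes the place of Psmb7, had levels of 0.22, 0.76, −0.90 and 1.44 in TRKA-TGF, 3.00, 2.97, 3.05 and 1.26 in TRKA, −7.96, −0.91, 0.53 and 0.24 in CD90 and −1.17, 0.11, −0.70 and −1.55 in p75 cells. TRKA arrays lay above all CD90 and p75 arrays and overlapped TRKA-TGF arrays only through TRKA replicate 4. The signal of CD90 replicate 1 was not well above background. Psmb10 was called higher in TRKA than in CD90 cells (4.60 ± 1.43, adjusted p = 0.023), and without CD90 replicate 1 the difference was 2.62 (adjusted p = 0.00706). That call was lost in the fit to these 2 populations alone (adjusted p = 0.119) and with TRKA replicates 2 and 3 left out (adjusted p = 0.116). Against p75 cells the difference of 3.40 ± 1.43 was not called (adjusted p = 0.0808), but it was called within the slide of these 2 populations (adjusted p = 0.00405) and without CD90 replicate 1 (adjusted p = 0.00064). The difference of −2.19 ± 1.43 in TRKA-TGF against TRKA cells was not called over all arrays (adjusted p = 0.29) or in the fit to these 2 populations (adjusted p = 0.0508), and was called without CD90 replicate 1 (adjusted p = 0.0161).

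Psmb8, which takes the place of Psmb5, had levels of 2.34, 1.85, 1.98 and 1.05 in TRKA-TGF, 2.26, −6.29, 1.90 and 2.10 in TRKA, −2.31, 0.89, 1.09 and 0.06 in CD90 and −6.18, 0.90, 1.28 and −2.20 in p75 cells. TRKA replicate 2 and p75 replicate 1 were not well above background. The other 3 TRKA arrays lay inside the range of TRKA-TGF cells and above every CD90 and p75 array. Differences were 1.81 ± 1.90 in TRKA-TGF against TRKA, 0.06 ± 1.90 in TRKA against CD90 and 1.54 ± 1.90 in TRKA against p75 cells (adjusted p = 0.525, 0.985 and 0.56), errors wide enough that differences of the size seen for Psmb9 were not detectable for this gene.

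**Figure D1:**
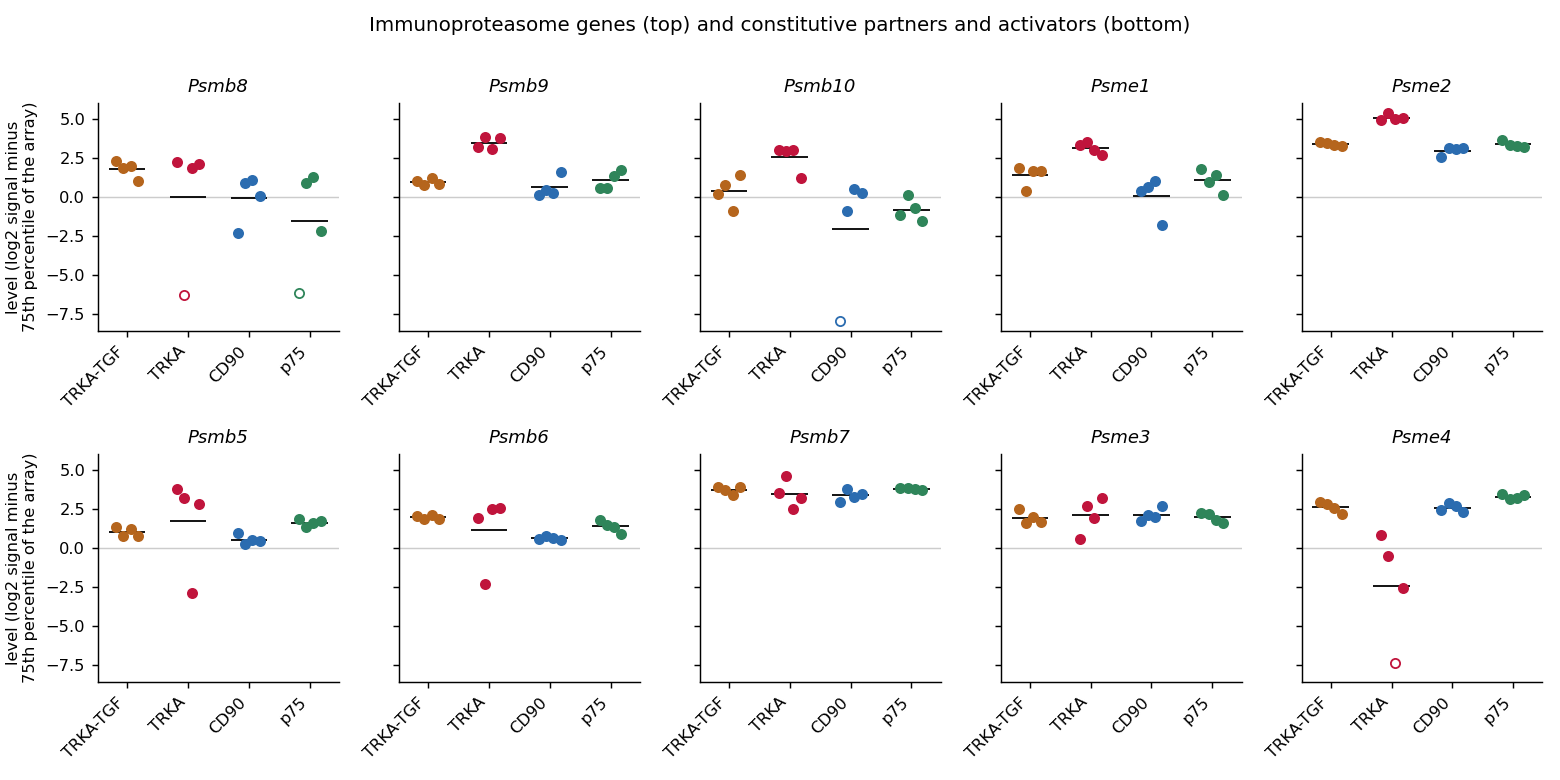
Level of each immunoproteasome gene (top) and of Psmb5, Psmb6, Psmb7, Psme3 and Psme4 (bottom) on each array, in log2 signal minus the 75th percentile of each array. Points are replicates, bars are means, and open points were not well above background. TRKA points of Psmb9, Psme1 and Psme2 lie above all other points, while Psmb5, Psmb6 and Psmb8 each have 1 TRKA array far below the other 3.

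With TRKA replicates 2 and 3 left out, which had the lowest share of spots above background, 3 of the 5 immunoproteasome genes were called higher against CD90 cells, 2 against p75 cells and 2 lower in TRKA-TGF than in TRKA cells. Psmb9 and Psme2 were called in all 3 comparisons under each of the 28 alternative fits, which overlap and are not independent checks. Under quantile normalization the differences of Psme2 were smaller, −0.85 in TRKA-TGF against TRKA, 1.09 in TRKA against CD90 and 0.80 in TRKA against p75 cells.

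The constitutive catalytic subunits showed no call in any of the 6 comparisons by limma in the fit to all 16 arrays, and none of the 3 genes had an unadjusted p under 0.05. Psmb5, which cleaves after hydrophobic residues, had levels of 1.36, 0.81, 1.24 and 0.81 in TRKA-TGF, 3.83, 3.23, −2.90 and 2.85 in TRKA, 0.96, 0.28, 0.52 and 0.45 in CD90 and 1.86, 1.34, 1.59 and 1.73 in p75 cells. Apart from replicate 3, the TRKA arrays were above all others. Without TRKA replicate 3 alone Psmb5 was called in all 3 comparisons with TRKA, at −2.25 in TRKA-TGF against TRKA (adjusted p = 0.000121), 2.76 in TRKA against CD90 (adjusted p = 1.24e-05) and 1.68 in TRKA against p75 cells (adjusted p = 0.000567), so its lack of a call rests on that array.

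Psmb6, which cleaves after acidic residues, had levels of 2.09, 1.90, 2.16 and 1.90 in TRKA-TGF, 1.92, −2.34, 2.54 and 2.57 in TRKA, 0.61, 0.75, 0.64 and 0.51 in CD90 and 1.81, 1.49, 1.37 and 0.92 in p75 cells. TRKA replicate 2 was again far from its group. The other TRKA arrays and all TRKA-TGF arrays were above all CD90 and p75 arrays. Without TRKA replicate 2 Psmb6 was called higher in TRKA than in p75 cells, so its lack of a call there rests on that array. The difference of TRKA-TGF against CD90 cells was 1.39 ± 0.81 (adjusted p = 0.332), and it was called in the fit to those 8 arrays alone, which lie on one slide (adjusted p = 0.00142).

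Psmb7, which cleaves after basic residues, had levels of 3.95, 3.75, 3.41 and 3.91 in TRKA-TGF, 3.57, 4.62, 2.49 and 3.20 in TRKA, 3.00, 3.80, 3.32 and 3.48 in CD90 and 3.84, 3.89, 3.82 and 3.75 in p75 cells. The 4 populations overlapped. Its difference in TRKA against CD90 cells was 0.07 ± 0.37 and took the other sign under quantile normalization (−0.88, adjusted p = 0.0449), where it was also called lower against p75 cells (−1.19, adjusted p = 0.0104) and higher in TRKA-TGF than in TRKA cells (1.02, adjusted p = 0.0301).

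Each immunoproteasome gene was then set against the subunit it replaces on the same array. Since probes differ in brightness, such a value has meaning only between populations. Psmb9 minus Psmb6 was −1.04, −1.15, −0.94 and −1.05 in TRKA-TGF, 1.31, 6.20, 0.57 and 1.21 in TRKA, −0.45, −0.27, −0.39 and 1.10 in CD90 and −1.23, −0.90, −0.02 and 0.84 in p75 cells. The TRKA-TGF arrays lay below all TRKA arrays, with a mean difference of −3.37 that was −2.07 without TRKA replicate 2, and below all CD90 arrays, with a mean difference of −1.04. Psmb10 minus Psmb7 was −3.73, −2.98, −4.32 and −2.47 in TRKA-TGF, −0.57, −1.64, 0.56 and −1.94 in TRKA, −10.96, −4.71, −2.79 and −3.24 in CD90 and −5.01, −3.78, −4.52 and −5.30 in p75 cells. Here every TRKA array was above every array of the other populations, by a mean of 4.53 against CD90 (2.68 without CD90 replicate 1) and 3.76 against p75 cells, and TRKA-TGF cells lay 2.48 lower on the log2 scale than TRKA cells. Psmb8 minus Psmb5 averaged 0.75 ± 0.37 in TRKA-TGF, −1.76 ± 5.90 in TRKA, −0.62 ± 1.83 in CD90 and −3.18 ± 3.64 in p75 cells (SD, n = 4 each). Of the 18 pair comparisons, 6 reached p = 0.0286 in an exact two-sided permutation test, the smallest value that the 70 assignments of 4 against 4 arrays allow, and their Benjamini-Hochberg value over the 18 was 0.0857. None therefore passed 0.05 after adjustment.

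**Figure D2:**
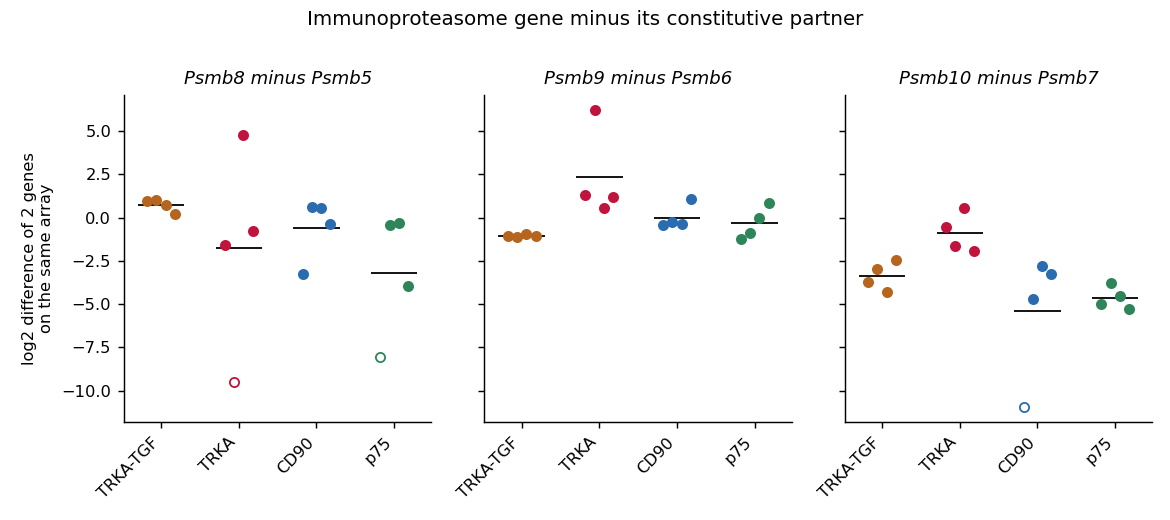
Difference in log2 signal between each immunoproteasome gene and the constitutive subunit it replaces, on the same array. Points are replicates, bars are means, and open points rest on a signal not well above background. Psmb9 minus Psmb6 and Psmb10 minus Psmb7 have their highest means in TRKA cells, and Psmb8 minus Psmb5 spreads from −9.52 to 4.80 there.

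Of 15 macrophage markers, 14 were above background on all TRKA-TGF arrays, 15 on all TRKA arrays, 13 on all CD90 arrays and 8 on all p75 arrays. Their summed signal (log2) was 8.32 to 8.38 in TRKA-TGF, 9.50 to 9.87 in TRKA, 4.99 to 5.59 in CD90 and 3.01 to 4.04 in p75 cells. Cd163 was above background on no TRKA-TGF array, and Ptprc and Itgb2 on no p75 array. All 15 were called higher in TRKA than in CD90 and in p75 cells, where 18.3% and 18.8% of all genes were called higher. Called higher in TRKA-TGF cells were 13 against CD90 and 14 against p75 cells, with 7.72% and 7.97% of all genes. For the 5 immunoproteasome genes, the median difference of TRKA-TGF cells was 1.33 against CD90 and 0.31 against p75 cells, and none was called. In TRKA-TGF against TRKA cells 4 of the 15 markers were called lower, where 12.9% of all genes were called lower. The part of these markers in the immunoproteasome result was not tested, and in bulk samples fewer cells of a type and less RNA per cell cannot be told apart. Of 11 lymphocyte markers, 5 were above background on no TRKA-TGF array, 6 on no TRKA array, 3 on no CD90 array and 6 on no p75 array. Their summed signal (log2) was −0.40 to 0.39 in TRKA-TGF, −1.65 to 1.83 in TRKA, −0.31 to 0.34 in CD90 and −1.58 to −0.76 in p75 cells.

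The other activators differed from PA28 alpha and beta. Psme3, the gamma subunit of PA28 that acts in the nucleus and is not induced by interferon, had levels of 2.54, 1.59, 1.99 and 1.67 in TRKA-TGF, 0.59, 2.68, 1.92 and 3.21 in TRKA, 1.77, 2.11, 2.01 and 2.70 in CD90 and 2.29, 2.23, 1.78 and 1.61 in p75 cells. The populations overlapped, and no comparison of Psme3 was called. Psme4, which encodes the PA200 activator, had levels of 2.96, 2.83, 2.60 and 2.21 in TRKA-TGF, 0.84, −0.53, −7.42 and −2.54 in TRKA, 2.44, 2.89, 2.70 and 2.29 in CD90 and 3.50, 3.18, 3.20 and 3.41 in p75 cells. The TRKA arrays were below all others, and replicate 3 was not well above background. Psme4 was called higher in TRKA-TGF than in TRKA cells (5.06 ± 1.22, adjusted p = 0.00754) and lower in TRKA cells against CD90 (−4.99 ± 1.22, adjusted p = 0.00574) and against p75 cells (−5.73 ± 1.22, adjusted p = 0.00226). A dimmer second probe of Psme4 gave 1.05 ± 0.77, −1.30 ± 0.77 and −2.24 ± 0.77 in the same 3 comparisons, of which only the last was called (adjusted p = 0.0348).

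Among the 7 alpha subunits of the core, Psma4, Psma6 and Psma7 were called higher in TRKA than in CD90 and p75 cells and lower in TRKA-TGF than in TRKA cells, and none was called the other way. Of all genes 18.3% and 18.8% were called higher in the first 2 comparisons and 12.9% lower in the third. Among genes with a mean level above 2, where these 3 lie, the shares were 60.3%, 58.9% and 50.6%. Psma6 had levels of 2.75, 2.44, 1.81 and 2.54 in TRKA-TGF, 4.07, 4.17, 4.47 and 4.07 in TRKA, 2.09, 1.38, 2.52 and 1.23 in CD90 and 2.36, 2.24, 1.99 and 2.26 in p75 cells. Its TRKA arrays stood above all others, with differences of −1.81 ± 0.30 in TRKA-TGF against TRKA, 2.39 ± 0.30 in TRKA against CD90 and 1.98 ± 0.30 in TRKA against p75 cells (adjusted p = 0.000616, 3.62e-05 and 0.000175). Psma7 was at 4.92 to 4.99 in TRKA-TGF, 6.07 to 6.33 in TRKA, 4.86 to 5.05 in CD90 and 4.83 to 5.18 in p75 cells, with differences of −1.22 ± 0.18, 1.23 ± 0.18 and 1.19 ± 0.18 in that order. Those of Psma7 shrank to −0.40, 0.17 and 0.16 under quantile normalization and were no longer called. Psma4 averaged 4.36 ± 0.12 in TRKA-TGF, 5.27 ± 0.23 in TRKA, 4.30 ± 0.03 in CD90 and 4.58 ± 0.18 in p75 cells, and its differences of 0.97 against CD90 and 0.69 against p75 cells turned to −0.11 and −0.30 under quantile normalization.

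Among the beta subunits without catalytic sites, Psmb4 had levels of 2.83, 3.23, 2.83 and 3.29 in TRKA-TGF, 4.69, 5.24, 4.63 and 4.86 in TRKA, 2.33, 2.34, 2.45 and 1.72 in CD90 and 2.05, 3.01, 3.17 and 2.58 in p75 cells. It was higher on every TRKA array than on any other, by 2.64 ± 0.29 against CD90 cells (adjusted p = 8.94e-06) and 2.15 ± 0.29 against p75 cells (adjusted p = 5.45e-05), and it was lower in TRKA-TGF than in TRKA cells (−1.81 ± 0.29, adjusted p = 0.000394). Psmb1 went the other way, at 2.92 ± 0.19 in TRKA-TGF against 1.84 ± 0.69 in TRKA cells (SD, n = 4 each), a difference of 1.07 ± 0.33 (adjusted p = 0.0264) whose call was lost in 5 of 28 alternative fits. Psmb3 was at 3.65, 3.29, 3.45 and 3.27 in TRKA-TGF and 2.75, 1.95, 2.77 and 1.81 in CD90 cells, without overlap, and was the only member called between these populations (1.09 ± 0.32, adjusted p = 0.0352), a call lost in 6 of 28 alternative fits. It was called higher in TRKA than in CD90 cells too (1.44 ± 0.32, adjusted p = 0.00312). That call was lost in 2 of 28 alternative fits, quantile normalization among them.

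In the regulatory cap, Psmc3 and Psmc5 were the 2 of 6 ATPases called higher in TRKA than in CD90 and p75 cells, and both were called lower in TRKA-TGF than in TRKA cells. The shares of all genes so called were 18.3%, 18.8% and 12.9%. Psmc3 was at 4.21 to 4.67 in TRKA-TGF, 5.58 to 6.21 in TRKA, 4.69 to 4.92 in CD90 and 3.94 to 4.63 in p75 cells. Its differences were −1.43 ± 0.23 in TRKA-TGF against TRKA, 1.08 ± 0.23 in TRKA against CD90 and 1.59 ± 0.23 in TRKA against p75 cells (adjusted p = 0.000439, 0.00215 and 0.000101), and quantile normalization turned that against CD90 cells to −0.013. Psmc5 gave −1.99 ± 0.37, 1.69 ± 0.37 and 1.69 ± 0.37 in the same order. Its calls against CD90 and p75 cells were each lost in 2 of 28 alternative fits, quantile normalization among them. Psmc2 was called lower in TRKA than in p75 cells (−3.29 ± 1.17, adjusted p = 0.0422), with a signal above background on 2 of 4 TRKA arrays. That call was lost in 16 of 28 alternative fits, with differences from −4.56 to −0.89.

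Psmd4, a ubiquitin receptor of the cap, had levels of 5.23, 5.37, 5.27 and 5.33 in TRKA-TGF, 6.59, 6.61, 6.71 and 6.54 in TRKA, 5.22, 5.27, 5.22 and 4.95 in CD90 and 5.13, 5.11, 5.28 and 5.02 in p75 cells. No array of another population reached the lowest TRKA array. The differences were −1.31 ± 0.18 in TRKA-TGF against TRKA, 1.45 ± 0.18 in TRKA against CD90 and 1.48 ± 0.18 in TRKA against p75 cells (adjusted p = 0.000123, 2.76e-05 and 2.32e-05). Quantile normalization took the second to 0.40, which was not called (adjusted p = 0.0745), and the smallest sizes of the other 2 over the alternatives were −0.51 and 0.48. Psmd12 and Psmd13, lid subunits, were called lower in TRKA-TGF than in TRKA cells by −1.20 ± 0.32 and −0.94 ± 0.30. The call of Psmd12 was lost in 4 of 28 alternative fits, where the difference shrank to as little as −0.46, and that of Psmd13 in 10, down to −0.27, both including quantile normalization and the fit to the 2 populations. Psmd14, the enzyme of the lid that removes ubiquitin chains, had levels of 2.36, 1.38, 1.20 and 2.18 in TRKA-TGF, 0.98, −7.52, −7.36 and −0.89 in TRKA, 1.67, 1.06, 0.50 and 0.71 in CD90 and 0.96, 0.65, 1.56 and −0.25 in p75 cells. TRKA replicates 2 and 3 were not well above background, and replicate 1 lay inside the range of CD90 and p75 cells. Psmd14 was called higher in TRKA-TGF than in TRKA cells (5.48 ± 1.51, adjusted p = 0.0161) and lower in TRKA than in CD90 (−4.69 ± 1.51, adjusted p = 0.0274) and p75 cells (−4.43 ± 1.51, adjusted p = 0.035). None of these 3 calls of Psmd14 held in fits to the 2 populations compared. Psmd8, another lid subunit, was called lower in TRKA than in p75 cells alone (−1.93 ± 0.71, adjusted p = 0.048), and the call was lost in 16 of 28 alternative fits, among them that within the slide (adjusted p = 0.17).

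Of 6 assembly chaperones, Psmd5 and Psmg4 were called lower in TRKA than in CD90 and p75 cells, where 16.6% and 16.9% of all genes were called lower. Psmd5, which holds ATPases of the cap before it is complete, had levels of −0.63, 0.30, −0.33 and 0.03 in TRKA-TGF, −1.71, −7.54, −7.45 and −7.96 in TRKA, 1.13, 1.64, 1.40 and 0.62 in CD90 and 0.85, −0.01, 0.58 and 0.38 in p75 cells. It was above background on 1 of 4 TRKA arrays, and that array too was below every other population. The differences were 6.01 ± 1.03 in TRKA-TGF against TRKA, −7.37 ± 1.03 in TRKA against CD90 and −6.62 ± 1.03 in TRKA against p75 cells (adjusted p = 0.000714, 7.79e-05 and 0.000199). With 3 of 4 TRKA arrays near background the sizes depended on the processing, from 2.97 to 7.50 in TRKA-TGF against TRKA and from −8.85 to −4.27 in TRKA against CD90 cells, while the calls held in all 28 alternative fits. Psmg4 was lower in TRKA by −4.12 ± 1.36 against CD90 and −4.95 ± 1.36 against p75 cells, but its second probe gave −1.32 ± 1.11 and −1.51 ± 1.11 and was not called. The calls of the first probe were lost in 11 and 2 of 28 alternative fits. Psmg1, an early chaperone of the alpha ring, was called lower in TRKA-TGF than in TRKA cells (−2.57 ± 0.64, adjusted p = 0.00935) and higher in TRKA than in p75 cells (2.14 ± 0.64, adjusted p = 0.0192). The call against p75 cells was lost in 4 of 28 alternative fits, among them that within the slide (adjusted p = 0.0529). The brighter probe of Psmd9 was not called, whereas its second probe was called in all 3 comparisons, at 4.20 ± 0.50 in TRKA-TGF against TRKA, −4.08 ± 0.50 in TRKA against CD90 and −4.42 ± 0.50 in TRKA against p75 cells. Psma8 and Psmb11, core subunits known from testis and thymus, had levels of −4.10 ± 0.30 and −2.69 ± 0.26 in TRKA-TGF, −6.53 ± 0.71 and −1.99 ± 1.03 in TRKA, −4.34 ± 0.44 and −2.68 ± 0.54 in CD90 and −4.76 ± 1.05 and −3.10 ± 0.56 in p75 cells. None of the TRKA arrays had the tested probe of Psma8 well above background. By that probe Psma8 was at least 4.58-fold higher in TRKA-TGF, at least 3.89-fold higher in CD90 and at least 2.90-fold higher in p75 than in TRKA cells (adjusted p = 0.00213, 0.00288 and 0.0113). These calls were lost in 4, 4 and 5 of 28 alternative fits, quantile normalization among them, and over these fits the differences shrank to 0.43 in TRKA-TGF against TRKA and −0.28 in TRKA against CD90 and turned to 0.0016 in TRKA against p75 cells under normexp correction. A second probe of Psma8 was not called in these comparisons and was above background on 3 of 4 TRKA arrays. Its mean was highest in TRKA cells, at −5.12 against −5.96 in TRKA-TGF, −5.66 in CD90 and −5.93 in p75 cells. Another probe of Psma8 was above background on no array.

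**Figure D3:**
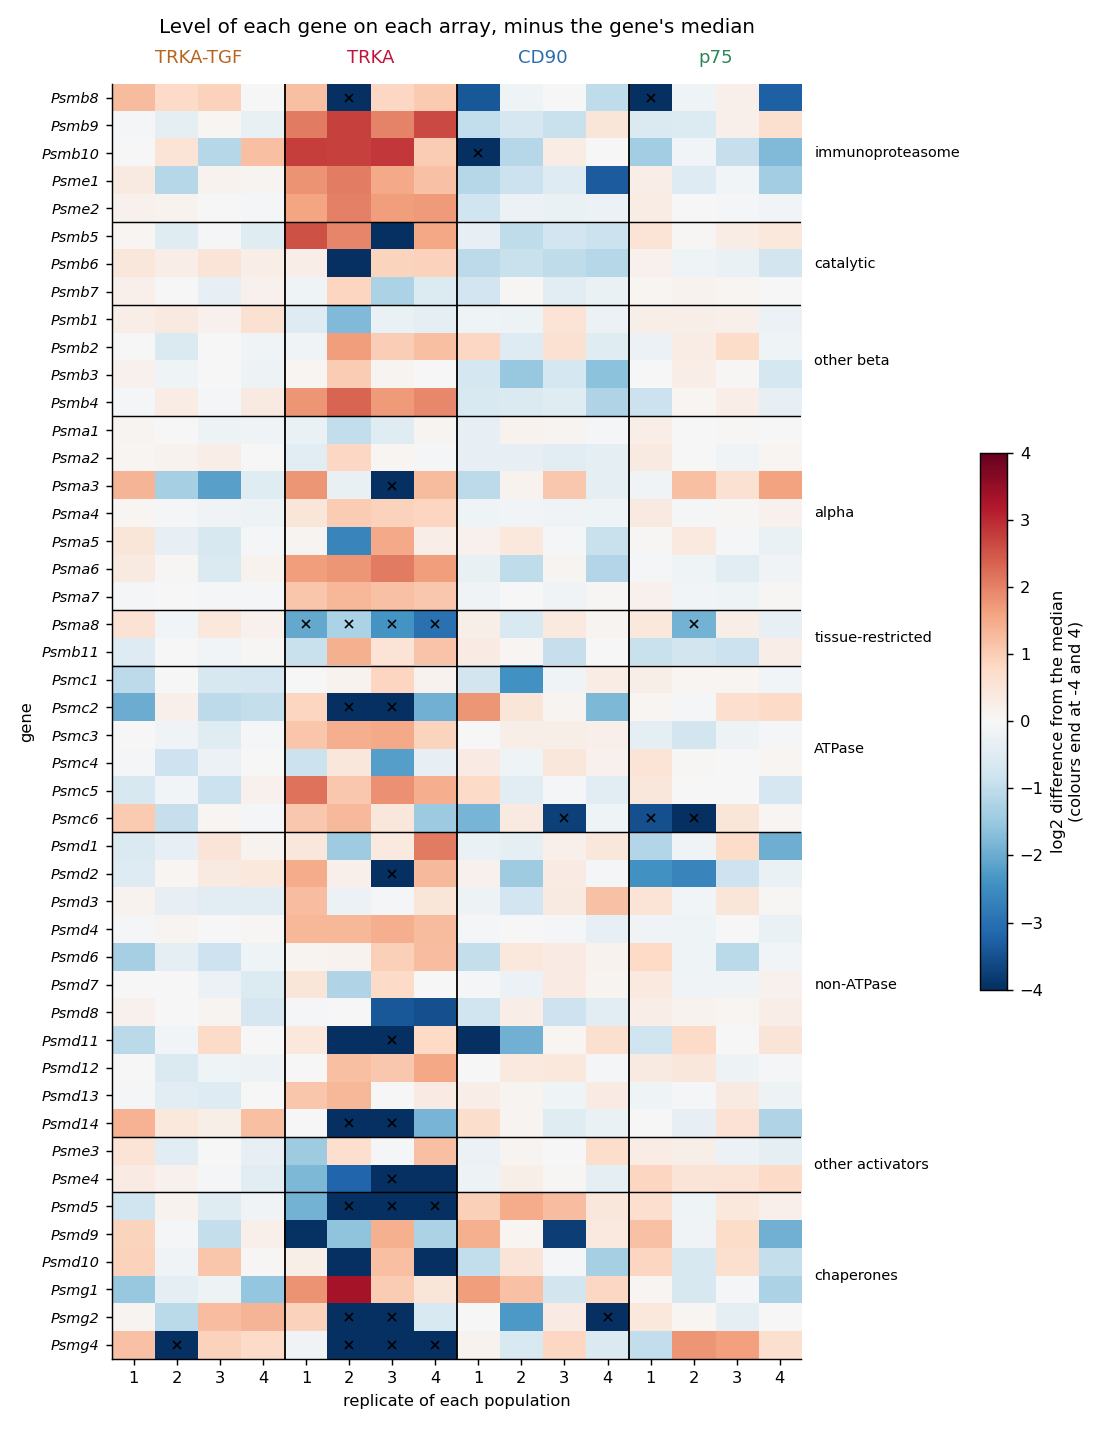
Log2 signal of each of the 46 genes on each of the 16 arrays, minus the median of that gene over the 16 arrays, grouped by role in the proteasome. Crosses mark signals not well above background. Genes red in all 4 TRKA columns include Psmb9, Psme1, Psme2, Psma6, Psmb4 and Psmd4, and most crosses, as for Psmd5 and Psmd14, lie in TRKA columns.

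Over all 46 members, 12 were called higher and 5 lower in TRKA than in CD90 cells, 11 higher and 7 lower in TRKA than in p75 cells, and 5 higher and 13 lower in TRKA-TGF than in TRKA cells. Of all genes 16.6%, 16.9% and 12.9% were called lower in these comparisons, and 18.3%, 18.8% and 13.5% higher. Under quantile normalization these splits were 8 and 9, 9 and 10, and 8 and 8, so the balance of directions over the whole set depends on the scaling. The median difference of the 41 other members turned to −0.15 in TRKA against CD90 cells, to −0.45 in TRKA against p75 cells and to 0.41 in TRKA-TGF against TRKA cells, while that of the 5 immunoproteasome genes kept its direction (2.16 in TRKA against CD90, 1.57 in TRKA against p75 and −1.06 in TRKA-TGF against TRKA cells). Quantile normalization moved the median of all genes to 0.22 in TRKA against CD90, 0.24 in TRKA against p75 and −0.14 in TRKA-TGF against TRKA cells. In the fit to TRKA and p75 arrays alone, within their slide, 10 members were called higher and 3 lower.

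The differences moved with the level of a gene. Among the 2492 genes whose mean level over all arrays was above 2, 60.3% were called higher in TRKA than in CD90 cells (median difference 0.92) and 58.9% higher than in p75 cells (median 0.85), and 50.6% were called lower in TRKA-TGF than in TRKA cells (median −0.68). Of the 19 members in that range, 9, 8 and 10 were so called. Psme2 belongs to that range, and its differences exceeded the median of the range. In the range from 0 to 2, with 3073 genes, 30.9% were called higher in TRKA than in CD90 cells (median 0.34), 29.7% higher than in p75 cells (median 0.33) and 20.8% lower in TRKA-TGF than in TRKA cells (median −0.12). Of the 14 members there 3 were called higher against CD90 cells, and these were Psmb9, Psmb10 and Psme1. The part of the level in these differences was not tested.

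**Figure D4:**
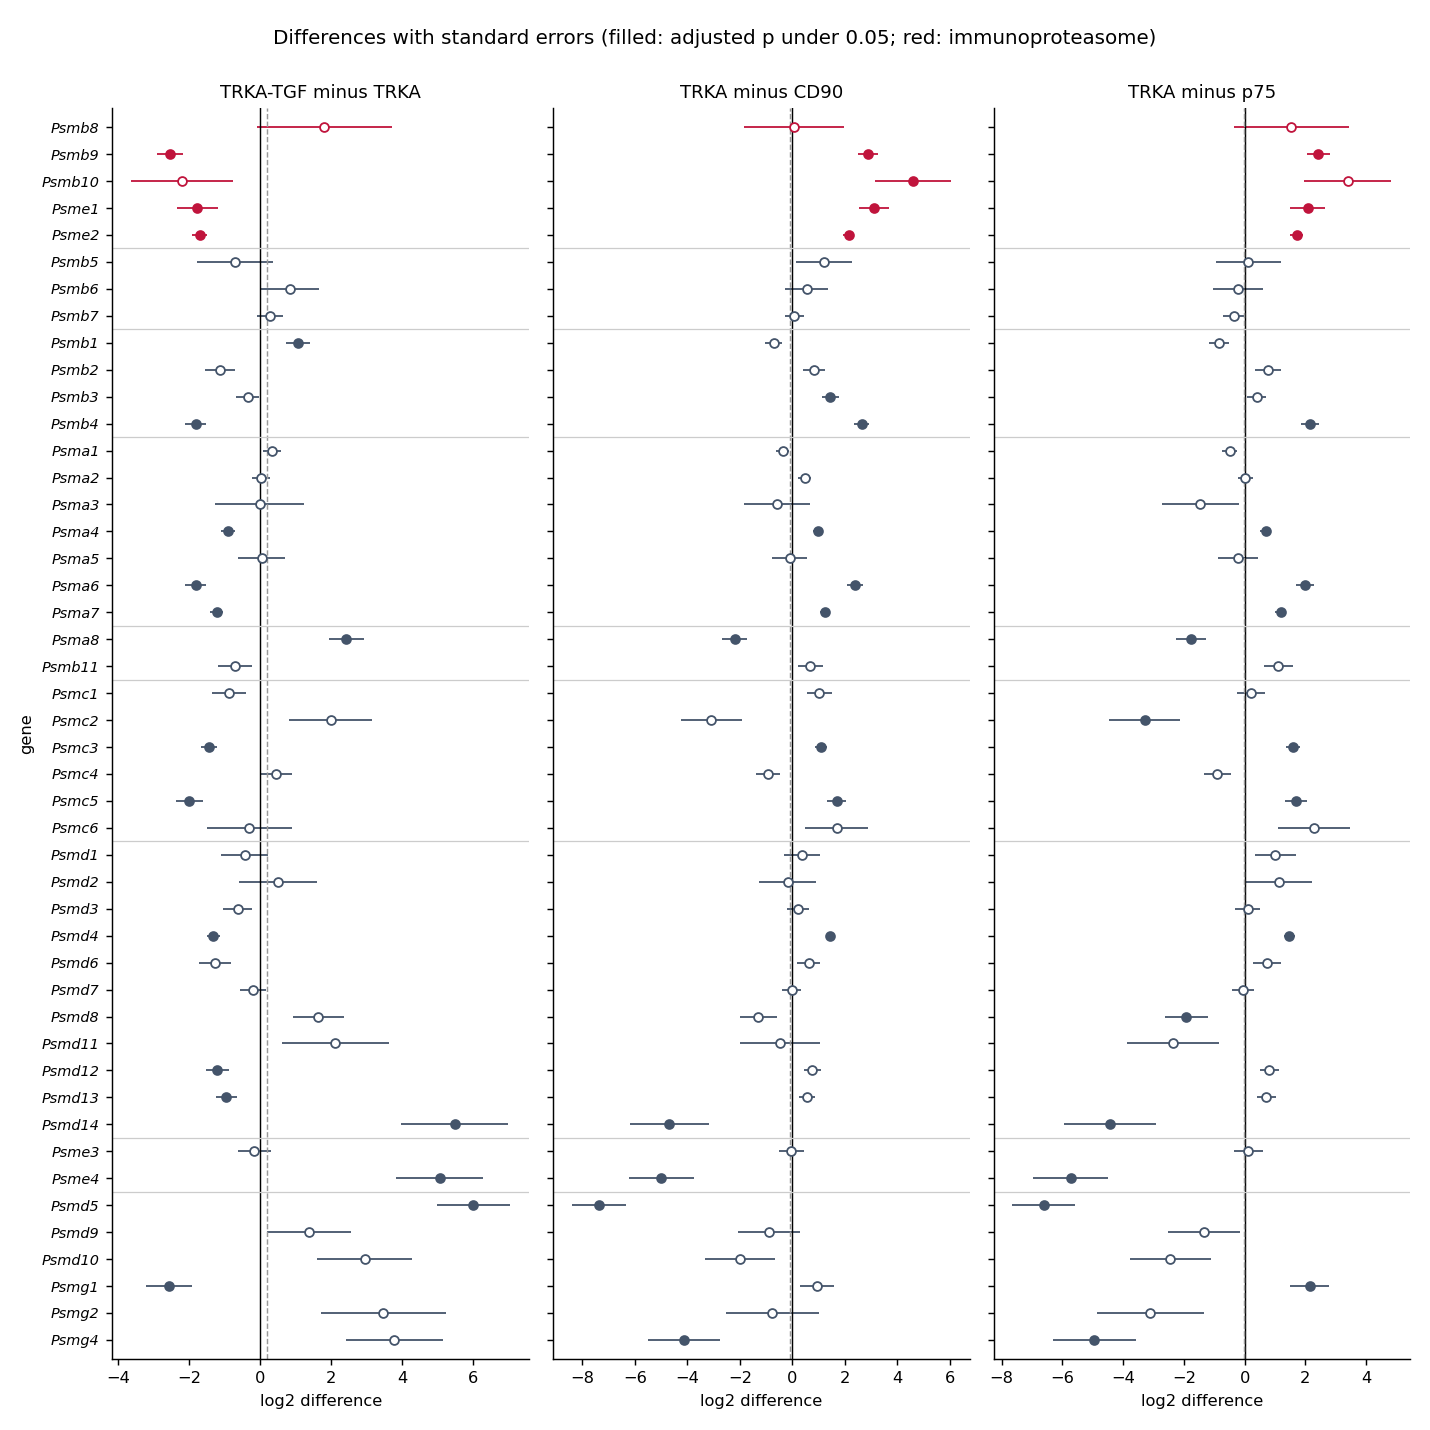
Log2 difference and its standard error for each of the 46 genes in TRKA-TGF minus TRKA, TRKA minus CD90 and TRKA minus p75. Filled points have an adjusted p under 0.05, red points are immunoproteasome genes and the dashed line is the median of all genes. Psmb9, Psme1 and Psme2 are filled in all 3 panels. Psma4, Psmc3 and Psmb7 take the other sign against CD90 cells under quantile normalization.

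**Figure D5:**
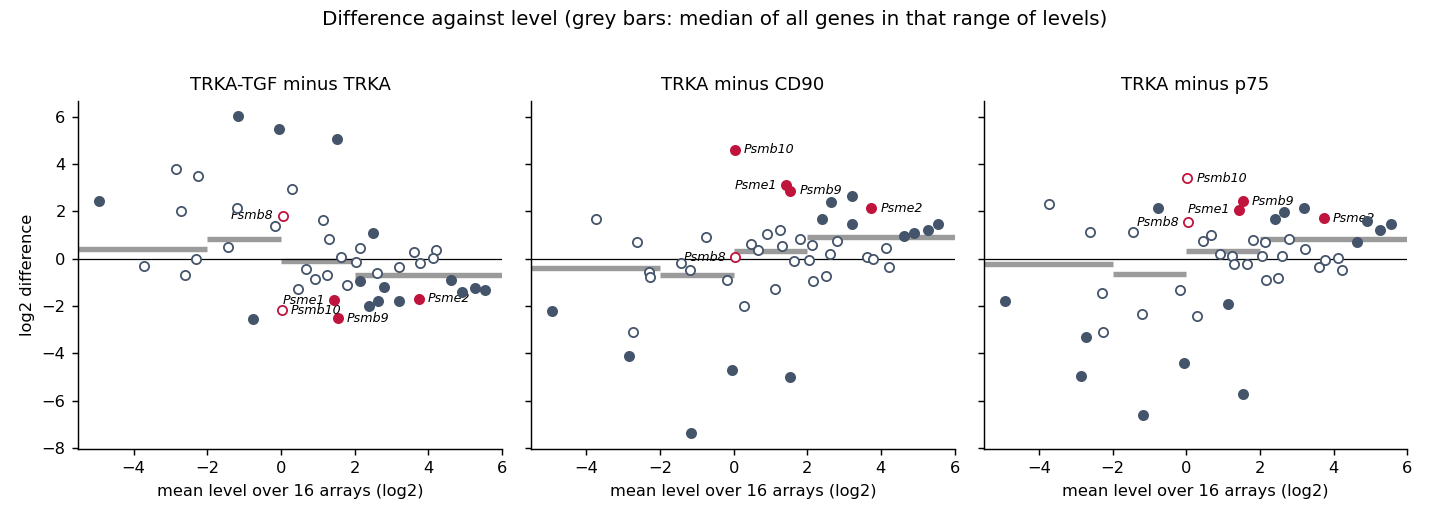
Log2 difference of each of the 46 genes against its mean level over 16 arrays, with grey bars at the median difference of all genes in each range of levels. Filled points have an adjusted p under 0.05 and red points are immunoproteasome genes. Psmb9, Psmb10, Psme1 and Psme2 lie beyond the grey bar of their range in all 3 panels, and the 19 members above a level of 2 lie within 2 units of it.

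On single arrays, the median level of the 5 immunoproteasome genes was 0.76 to 1.88 in TRKA-TGF, 2.71 to 3.57 in TRKA, 0.16 to 1.02 in CD90 and 0.15 to 1.35 in p75 cells. That of the 39 other members without Psma8 and Psmb11 was 1.57 to 2.09 in TRKA-TGF, 1.58 to 2.33 in TRKA, 1.23 to 1.92 in CD90 and 1.61 to 1.92 in p75 cells. The medians of the immunoproteasome genes in TRKA cells did not overlap those of any other population, and those of the other members overlapped throughout.

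Few proteasome genes were called among TRKA-TGF, CD90 and p75 cells. In TRKA-TGF against CD90 cells 1 of 46 members was called, where 7.72% of all genes were called higher, 7.19% lower and 14.9% in either direction, and 4 had an unadjusted p under 0.05 by limma. All 5 immunoproteasome genes had differences above 0, of 1.87 ± 1.90 for Psmb8, 0.35 ± 0.37 for Psmb9, 2.41 ± 1.43 for Psmb10, 1.33 ± 0.57 for Psme1 and 0.44 ± 0.21 for Psme2, and none was called, although Psme1 had an unadjusted p under 0.05. Their median difference was 1.33, against 0.15 over all genes. In the fit to these 8 arrays of one slide, 4 members were called, Psmb3, Psmb4 and Psmb6 higher and Psmd5 lower in TRKA-TGF cells. In TRKA-TGF against p75 cells 0 of 46 members were called by limma, with 7.97% of all genes called higher, 7.15% lower and 15.1% in either direction, and 0 had an unadjusted p under 0.05. Psmb9 differed there by −0.10 ± 0.37, Psme2 by 0.02 ± 0.21 and Psmb8 by 3.35 ± 1.90, and the median of the 5 immunoproteasome genes was 0.31, against 0.14 over all genes. In CD90 against p75 cells 0 members were called, with 3.68% of all genes called higher, 3.57% lower and 7.25% in either direction, and 2 (Psmb3 and Psmc3) had an unadjusted p under 0.05. The fit to those 8 arrays alone called Psmb5 lower in CD90 cells (−1.08, adjusted p = 0.0295). The median of the 5 immunoproteasome genes was −0.45 in this comparison, against 0.05 over all genes.

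Partner genes of the proteasome were examined as a list of 23 genes. Of these, 8 were called higher and 3 lower in TRKA than in CD90 cells, 6 higher and 3 lower than in p75 cells, and 2 higher and 5 lower in TRKA-TGF than in TRKA cells, and none in the other 3 comparisons. Called in either direction were thus 47.8%, 39.1% and 30.4% of the list, against 34.9%, 35.7% and 26.4% of all genes. Pomp, the chaperone that is degraded as the core matures, was at 2.43 in TRKA-TGF, 4.13 in TRKA, 2.10 in CD90 and 1.99 in p75 cells, with differences of −1.69 ± 0.30, 2.02 ± 0.30 and 2.13 ± 0.30 in the 3 comparisons with TRKA (adjusted p = 0.000812, 0.000113 and 7.49e-05). Psmf1, an inhibitor of the core, was called lower in TRKA than in p75 cells (−2.35 ± 0.71, adjusted p = 0.0189). Akirin2, which carries proteasomes into the nucleus, was called higher in TRKA-TGF than in TRKA cells (3.79 ± 1.06) and lower in TRKA than in CD90 (−4.12 ± 1.06) and p75 cells (−4.85 ± 1.06). Nfe2l1, the factor that raises proteasome genes when the proteasome is inhibited, was called in no comparison, with means of −1.46 in TRKA-TGF, −3.18 in TRKA, −3.17 in CD90 and −3.40 in p75 cells.

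Antigen presentation, which uses the peptides of the immunoproteasome, was examined over 16 genes. In TRKA cells 5 were called higher and 1 lower than in CD90 cells, and likewise 5 higher and 1 lower than in p75 cells, and in TRKA-TGF against TRKA cells 0 were called higher and 4 lower. These are 37.5%, 37.5% and 25% of the list, near the 34.9%, 35.7% and 26.4% of all genes called in either direction. In TRKA-TGF cells 3 were called higher and 3 lower than in CD90 cells and 2 higher and 2 lower than in p75 cells, and in CD90 against p75 cells 1 was called higher, or 37.5%, 25% and 6.25% of the list, against 14.9%, 15.1% and 7.25% of all genes. B2m, the light chain of MHC class I, was at 5.14 in TRKA-TGF, 5.11 in TRKA, 3.76 in CD90 and 4.05 in p75 cells, and was called higher in both TRKA-TGF and TRKA cells than in CD90 (1.38 ± 0.19 and 1.35 ± 0.19) and p75 cells (1.08 ± 0.19 and 1.06 ± 0.19). Between TRKA-TGF and TRKA cells B2m differed by 0.03 ± 0.19 (adjusted p = 0.936), whereas Psmb9, Psme1 and Psme2 were called lower in TRKA-TGF cells. RT1-T24-4, a class I gene, was at −1.25 in TRKA-TGF and 2.59 in TRKA cells (−3.83 ± 0.27, adjusted p = 3.84e-07), and class I genes share near-identical copies that one probe may not tell apart. Tapbpl, an editor of class I peptides, was called lower in TRKA-TGF than in TRKA (−3.45 ± 0.58), CD90 (−2.52 ± 0.58) and p75 cells (−2.82 ± 0.58). RT1-A2, another class I gene, was the one called higher in CD90 than in p75 cells (1.71 ± 0.30, adjusted p = 0.00216). Of the TAP transporter that carries peptides to class I, Tap2 was called higher in TRKA than in CD90 cells (1.05 ± 0.35, adjusted p = 0.0322) and Tap1 was called nowhere. Lnpep, a peptidase that trims class I peptides, was called lower in TRKA than in CD90 cells (−3.70 ± 0.95, adjusted p = 0.00748) and p75 cells (−2.56 ± 0.95, adjusted p = 0.049).

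Regulators of the interferon response were a list of 15 tested genes, with 4 called higher and 3 lower in TRKA than in CD90 cells, 4 higher and 1 lower than in p75 cells, and 3 higher and 3 lower in TRKA-TGF than in TRKA cells. In either direction 46.7%, 33.3% and 40% of the list were called in these 3 comparisons, against 34.9%, 35.7% and 26.4% of all genes. In TRKA-TGF cells 2 were called higher than in CD90 and 3 higher than in p75 cells, or 13.3% and 20% of the list, against 7.72% and 7.97% of all genes. Irf1, a factor that acts on immunoproteasome genes, was at −0.25 in TRKA-TGF, −4.32 in TRKA, −0.37 in CD90 and −0.03 in p75 cells, and was called higher in TRKA-TGF than in TRKA (4.07 ± 1.37, adjusted p = 0.0412) and lower in TRKA than in CD90 (−3.96 ± 1.37, adjusted p = 0.0373) and p75 cells (−4.29 ± 1.37, adjusted p = 0.0252). It was above background on 2 of 4 TRKA arrays. Irf8, a factor of myeloid cells, was called higher in TRKA-TGF and TRKA cells than in CD90 (5.26 ± 1.05 and 5.33 ± 1.05) and p75 cells (5.96 ± 1.05 and 6.03 ± 1.05). Ifngr1, which binds interferon gamma, was at 5.35 in TRKA-TGF, 6.91 in TRKA, 3.54 in CD90 and 3.99 in p75 cells, and was called higher in TRKA-TGF than in CD90 (1.81 ± 0.23) and p75 cells (1.35 ± 0.23). Jak1, a kinase of interferon receptors, was called higher in CD90 than in p75 cells (1.25 ± 0.32, adjusted p = 0.0306).

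Of named genes outside the set, Rnh1, the ribonuclease inhibitor, and Hebp1, a heme-binding protein, had the pattern over the 16 arrays most like the mean of the 5 immunoproteasome genes (Pearson r = 0.90 for each), behind the uncharacterised LOC688018 (r = 0.93). A pair of probes without a gene symbol followed (r = 0.89 for each). These are correlations over 16 arrays of 4 populations, given as a description.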

How the data were processed

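Per the labels' protocols, mRNA was bound to magnetic beads, its cDNA was amplified globally by PCR, and Cy3-labelled product was hybridised to Agilent rat arrays in 1 colour. Such amplification can widen differences between small inputs. The deposited files hold spot intensities after background subtraction, per the file headers, which name Feature Extraction 10.7.3.1, whereas the submitters' processing notes name version 10.5. Of 58717 spots per array other than controls, 0 were saturated. A log2 value table that the authors deposited ran, against the scanner files, on a line of slope 1.00 with quantile-normalized signals centred on each probe's median. Its column medians were −0.03 to 0.19. It served as an alternative.

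Spots with a non-uniformity or population outlier mark were removed, the rest were averaged per probe, and the array's 75th percentile was subtracted from log2 intensities. Probes well above background on at least 4 of 16 arrays were kept, and each gene took the probe with the highest mean among them. Symbols came from a RefSeq gene list of GRCr8 (18355 probes by accession, 3180 by symbol) or from the array files (8832 probes), and promoters from RefSeq for the same build. limma 3.58.1 in R 4.3.3 was fitted to all 16 arrays with 1 mean per population, with Benjamini-Hochberg adjustment over the 20572 genes of each comparison, and was tested on simulated data. For a gene below background throughout a population, an "at least" fold took as its bound there the lowest signal marked as well above background, or the gene's own signal where higher, averaged across arrays. Pairs of subunits were compared with an exact two-sided permutation test.

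The members, the gene lists and the tests were chosen with earlier results of these data known. Named on every array were the immunoproteasome genes, their partners and the other activators. Other members were named where they were among the 5 largest called differences of a comparison in each direction. From the 3 lists of partner genes the 4 largest called differences of each comparison were named, along with Pomp, Psmf1, Nfe2l1, Tap1, Tap2, B2m and Irf1. Some items are not reported here. Alternatives were normexp background correction, quantile normalization, the authors' values, other filters and probe rules, fits to the 2 populations compared, a replicate block and leaving out each array. The number of arrays limits the precision.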

Additional observations from a re-analysis of the deposited data

Results flagged for a closer look

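Each member's 4 arrays in a population were searched for 1 array whose gap to the nearest of the others exceeded Dixon's 95% critical share of the whole range. Among 184 such sets of 4 arrays, 16 had one, 2 in TRKA-TGF, 7 in TRKA, 5 in CD90 and 2 in p75 cells. Chance gives about 1 in 20. Of the 16, 3 were not well above background.

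In TRKA-TGF cells these were Psme1 in replicate 2 (0.40) and Psmg4 in replicate 2 (−6.32). In TRKA cells, replicate 2 was far below its group for Psmb6 (−2.34) and Psmb8 (−6.29) and above it for Psmb3 (4.47). Replicate 3 was far below for Psmb5 (−2.90), replicate 4 for Psmb10 (1.26), and replicate 1 was above its group for Psmd5 (−1.71) and Psmg4 (−2.03). The low values of Psmb5, Psmb6 and Psmb8 lay in libraries with a low share of spots above background, and their part was not tested.

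In CD90 cells replicate 1 was low for Psmb10 (−7.96), Psme2 (2.57) and Psmc3 (4.69), replicate 4 was low for Psmb4 (1.72) and replicate 3 high for Psmb1 (3.13). In p75 cells replicate 4 was low for Psmb1 (2.33) and high for Psmb11 (−2.27).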

How the results depend on the processing

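Over 28 alternatives, 1367 of the 1512 values of called genes kept their direction and their call, 138 lost the call and 7 turned direction, and of 1316 values of named uncalled genes 22 became called in the same direction and 4 with the sign turned. A change of sign was counted only where the gene was called before or after it. These alternatives are not independent checks. The authors' values run with the quantile-normalized ones, and some fits leave out an array of neither population compared. With the authors' values and with quantile normalization, Psma4 turned to −0.11 in TRKA against CD90 and −0.30 in TRKA against p75 cells, Psmc3 to −0.013 in TRKA against CD90 (both settings) and Psmb7 to −0.88 in TRKA against CD90 cells. Normexp correction turned Psma8 to 0.0016 in TRKA against p75 cells. Psmb6 turned to 0.95 in TRKA against p75 cells without TRKA replicate 2 (range over TRKA arrays left out −0.69 to 0.95), and to 0.85 with TRKA replicates 2 and 3 left out, an alternative chosen after seeing the data, as was the percentile taken over spots. The cause was not tested. Members called in TRKA-TGF against CD90 cells numbered 2 with those TRKA arrays left out, 2 under normexp and 4 in the fit to the 2 populations, against 1, and in CD90 against p75 cells 2, 1 and 1, against 0. Leaving out each array in turn gave 16 to 23 members called in TRKA-TGF against TRKA, 0 to 2 in TRKA-TGF against CD90, 0 in TRKA-TGF against p75, 15 to 22 in TRKA against CD90, 15 to 21 in TRKA against p75 and 0 to 1 in CD90 against p75 cells. Immunoproteasome genes called numbered 2 to 4 in TRKA-TGF against TRKA (2 without TRKA replicate 1, 4 without CD90 replicate 1), 4 in TRKA against CD90 and 3 to 4 in TRKA against p75 cells. The count for TRKA-TGF against CD90 cells was 0 without CD90 replicate 2 or 4 or without any 1 of the TRKA-TGF arrays. Pairs of subunits had 0 calls over all 16 arrays and 0 with each array left out in turn. The smallest p of their permutation test over all arrays was 0.0286, so these counts say little about stability. Same-numbered arrays of different populations correlated at −0.03 to 0.04 in their deviations from the group means, as did differently numbered ones, so the numbers were not taken as pairs. With the replicate number as a block 17 members were called in TRKA-TGF against TRKA, 1 in TRKA-TGF against CD90, 17 in TRKA against CD90 and 17 in TRKA against p75 cells. Signals near background limit Psmb8, Psmd5 and Psmd14 most, above all in TRKA cells.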
